A study of Mus musculus with 15 samples.

Results

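Chemokines, interleukins, their receptors, major histocompatibility complex (MHC) genes, C1q, Toll-like receptors, Fc receptors and CD surface antigens were followed in mouse ovaries with both, one or no working copy of *Foxl2*, a forkhead transcription factor of granulosa cells. The genes were chosen by name: every probe whose RefSeq accession led to a current symbol that begins with Cxcl, Cxcr, H2-, Fcgr or Fcer, that begins with Ccl, Ccr, Il or Tlr and a number, that consists of Cd, a number and at most one small letter, or to *C1qa*, *C1qb*, *C1qc* or *Ptprc*. This gave 216 genes with 257 probes, among 12254 genes named on the array, and 2 further genes that match the pattern were left out by the rule. A gene with several probes (40 genes) is given by its brightest one.

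Whole ovaries were taken from female mice of a mixed background, named NIHS-BC in the labels. The study's methods give it as a mixture of an SvEvTac strain and NIH-Swiss/BC. Newborn ovaries were *Foxl2*-/- (null), *Foxl2*+/- (heterozygous) and *Foxl2*+/+ (wild-type), with 3 arrays of each, and ovaries at 7 days after birth (7 dpn) had the same 3 genotypes with 2 arrays of each, every one carrying RNA pooled from several mice. For the 7 dpn samples the labels conflict, since titles and development stage give 7 days while the age field reads birth, and the title was followed. The knock-out is constitutive, so that *Foxl2* is lost in the whole animal and not in the ovary alone, and no agent was given to any group. Ovary RNA was labelled with Cy3 and hybridised together with a Cy5-labelled universal reference, a pool of RNA from 11 mouse cell lines that include alveolar macrophage, B lymphocyte and T lymphocyte lines. The level of a gene on an array is therefore the log2 of its ovary signal over its reference signal; the differences between groups given below are differences of this level, each with its standard error (SE).

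Chemokines are small secreted proteins that steer migrating cells through receptors on their surface, and *Cxcl12* with its receptor *Cxcr4* is known for guiding germ cells to the gonad as well as blood cells. Interleukins carry signals between immune and other cells, and members of the interleukin-1 family such as *Il18* and *Il33* are also made by epithelial and stromal cells. MHC class II molecules present peptides to helper T cells, and in an ovary macrophages, B cells and dendritic cells are their usual source, while C1q, Toll-like and Fc receptors belong to the innate arm. In bulk tissue, more cells of a type and more RNA in each of them cannot be told apart.

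On single arrays the scanner software called 93.2 to 96.5% of all probes well above background in the ovary sample. Of the 216 genes, 194 were so on all 15 arrays, a stricter count that cannot be set against that share. Another 4 (*Il7r*, *Cd247*, *Il20* and *Ccl22*, named here for their signal) were well above background on no array. Log2 ratios of arrays of the same group correlated across probes with a median r of 0.949, and newborn wild-type replicate 1 stood lowest with a median r of 0.902 to its group. The oocyte marker list, a check of the tissue, had a mean log2 ratio between 3.08 and 3.82 on every array. The images of all newborn arrays went through the extraction software on one day and those of all 7 dpn arrays on another, so age cannot be told apart from that day or from pooling; the days of hybridisation and scanning were not used here. The *Foxl2* probe gives no check of the genotype labels because it spanned only 0.165 over all 15 arrays, with means of -0.25 in 7 dpn null and -0.33 in 7 dpn wild-type ovaries.

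The immune genes spanned a somewhat wider range over the series than the array as a whole. The difference between a gene's highest and lowest array had a median of 0.604 on the log2 scale over the 216 genes, against 0.499 over all probes, and 93 genes had a difference under 0.5. Median levels were below 0, that is, lower in ovary than in the reference, for 138 genes.

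At 7 dpn the loss of *Foxl2* came with higher signal of 10 genes and lower signal of 7. Higher in null than in wild-type ovaries were the interleukins *Il33*, *Il18*, *Il25* and *Il1f6*, the receptors *Cxcr4*, *Il17rc*, *Il17re* and *Fcgr2b*, and the MHC class II genes *Cd74* and *H2-Eb1*, by 1.15-fold (*H2-Eb1*) to 4.51-fold (*Il33*). Lower were the chemokines *Cxcl14*, *Ccl21b*, *Ccl21a* and *Cxcl12*, the surface antigens *Cd7* and *Cd34*, and the interleukin-13 receptor *Il13ra2*, by 1.35-fold (*Il13ra2*) to 5.84-fold (*Cxcl14*). The 17 genes are 7.87% of the 216, where 5.53% of all 40990 probes were called (limma, adjusted p under 0.05). The 10 higher genes are 4.63% where 2.77% of all probes were called higher, and the 7 lower ones are 3.24% where 2.76% were called lower. Counts by role given below for this comparison are to be read beside these shares of all probes, and no role was tested as a set. The median difference over the 216 genes was 0.032, and over all probes it was 0.015. On the series values that the authors deposited, which follow the ovary signal alone and shift the median of all probes by 0.112, the split was 19 higher and 5 lower.

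**Figure D1:**
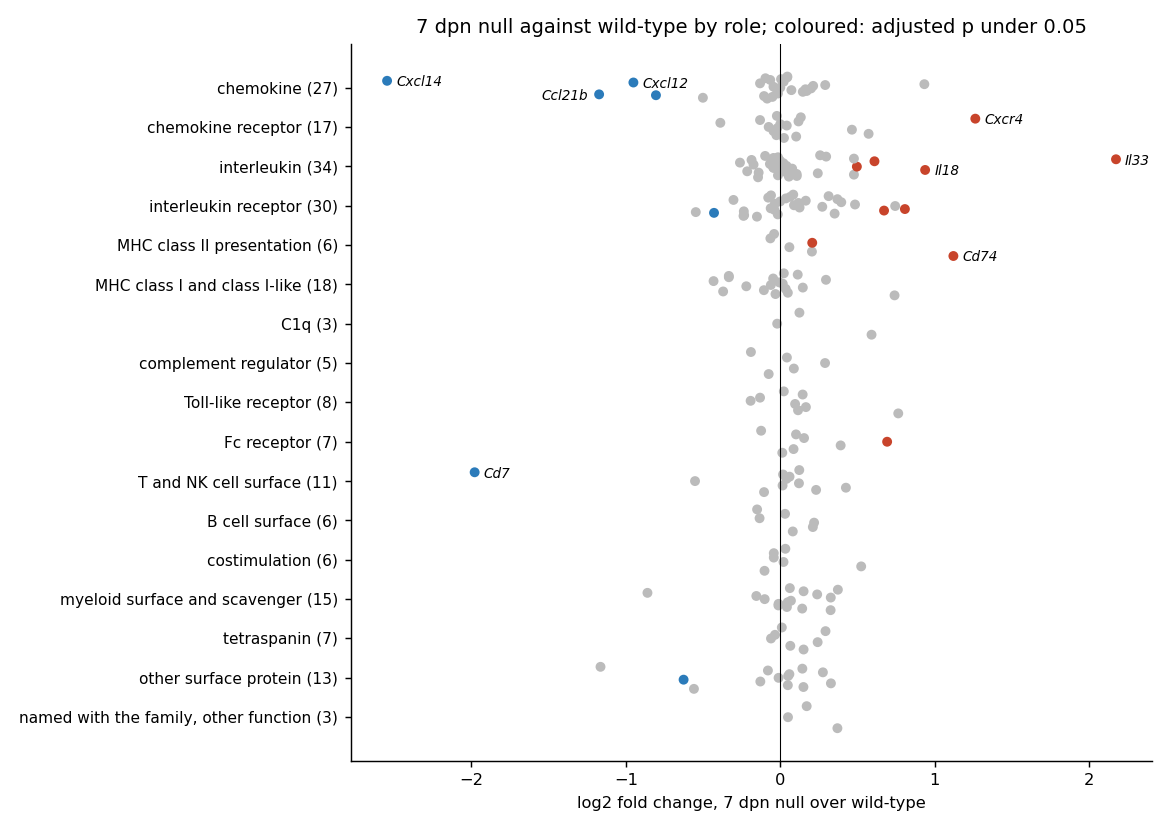
Log2 fold change of null over wild-type ovaries at 7 dpn (x axis) for the 216 genes, one point each, in rows by role with the number of genes in brackets; red and blue points are the 10 genes called higher and the 7 called lower, and grey points were not called. All 4 called chemokines lie to the left of 0 and all 4 called interleukins to the right.

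*Il33*, a nuclear cytokine of epithelial, endothelial and stromal cells that is released on damage, had the largest rise among the 216 genes. At 7 dpn its log2 ratios were -2.56 and -2.85 in wild-type, -1.46 and -1.34 in heterozygous, and -0.61 and -0.45 in null ovaries. Null ovaries exceeded wild-type ovaries by 2.17 (SE 0.27, adjusted p = 0.0011). The 3 genotypes did not overlap, with heterozygous ovaries in the middle. In newborns the ratios were -3.04, -2.07 and -2.56 in wild-type, -2.14, -2.38 and -2.19 in heterozygous, and -1.20, -1.05 and -1.69 in null ovaries, a difference of 1.25 between null and wild-type (SE 0.22, adjusted p = 0.018). All 3 null arrays lay above all other newborn arrays.

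The other called interleukins moved at 7 dpn. *Il18*, an activator of interferon-gamma production, stood at 0.50 and -0.34 in wild-type, 0.29 and 0.51 in heterozygous, and 0.98 and 1.05 in null ovaries, a difference of 0.94 between null and wild-type (SE 0.20, adjusted p = 0.022). Null and wild-type values did not overlap, but the 2 wild-type pools lay far apart. The difference was 1.37 without wild-type replicate 1 and 0.52 without replicate 2 (adjusted p = 0.060), and the call was also lost without either null array (adjusted p = 0.077 and 0.13). *Il25*, also called interleukin-17E, was at 0.29 and 0.10 in wild-type and at 0.74 and 0.87 in null ovaries, and it rose by 0.61 (SE 0.08, adjusted p = 0.0020). *Il1f6*, the older symbol of interleukin-36 alpha, rose by 0.50 (SE 0.08, adjusted p = 0.0040), from 0.21 and 0.18 to 0.75 and 0.63. In newborns *Il18* (0.15, adjusted p = 0.74), *Il25* (0.31, adjusted p = 0.052) and *Il1f6* (0.11, adjusted p = 0.49) were not called. Of the 34 interleukin genes, the 4 named were higher, none was lower, and the median difference was 0.01; *Il1b* (0.08, SE 0.21), *Il6* (0.30, SE 0.38) and *Il7* (-0.10, SE 0.08) did not pass.

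Among 30 interleukin receptor genes 2 rose and 1 fell at 7 dpn. *Il17rc*, a subunit of the receptor for interleukin-17A and interleukin-17F, was at -0.33 and -0.37 in wild-type, -0.18 and -0.33 in heterozygous, and 0.26 and 0.38 in null ovaries, a rise of 0.67 (SE 0.07, adjusted p = 0.00029). Newborn *Il17rc* values ran from -0.29 to 0.00 in all 9 arrays, and null exceeded wild-type there by only 0.11 (adjusted p = 0.42). *Il17re*, the receptor subunit for interleukin-17C, rose from 0.70 and 0.66 to 1.22 and 1.75, by 0.81 (SE 0.14, adjusted p = 0.0067). *Il13ra2*, a decoy receptor for interleukin-13, fell by 0.43 (SE 0.11, adjusted p = 0.042), from 0.82 and 0.43 in wild-type to 0.26 and 0.14 in null ovaries. The receptors *Il6ra* (0.31, SE 0.25) and *Il1r1* (0.27, SE 0.11) did not pass.

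*Cxcr4* was the single chemokine receptor called among 17. Its wild-type values at 7 dpn were -0.88 and -0.86, its heterozygous values -0.42 and -0.75, and its null values 0.28 and 0.51. The rise of 1.26 in null over wild-type ovaries (2.40-fold, SE 0.10, adjusted p = 0.00010) had the smallest p of the 216 genes. Newborn values were -1.02, -1.14 and -1.06 in wild-type, -0.82, -0.72 and -0.73 in heterozygous, and -0.66, -0.54 and -0.55 in null ovaries, a rise of 0.49 (SE 0.09, adjusted p = 0.017). No array of one newborn genotype overlapped with those of another.

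Its ligand *Cxcl12* went the other way at 7 dpn. The values were -1.03 and -1.35 in wild-type, -1.56 and -1.46 in heterozygous, and -2.26 and -2.02 in null ovaries, a fall of 0.95 (SE 0.23, adjusted p = 0.037). The 3 genotypes were again apart, while newborn null values of -2.45, -1.75 and -1.95 overlapped with the wild-type values of -1.54, -2.12 and -1.90.

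*Cxcl14*, a chemokine of epithelia, showed the largest fall among the 216 genes. At 7 dpn it stood at 3.00 and 2.56 in wild-type, 1.67 and 1.43 in heterozygous, and 0.13 and 0.34 in null ovaries, a fall of 2.55 (SE 0.38, adjusted p = 0.0032). In newborns it was at 1.91, 0.53 and 0.47 in wild-type, 0.47, 0.41 and 0.38 in heterozygous, and -0.30, -0.16 and 0.11 in null ovaries. Newborn null lay 1.08 below wild-type without passing (adjusted p = 0.14), and the first newborn wild-type array was far above the other 2.

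*Ccl21a* and *Ccl21b*, near-identical ligands of *Ccr7* that draw T cells and dendritic cells to lymphoid tissue, fell together at 7 dpn. Their probes share a run of 43 of 60 bases, so the 2 genes cannot be separated by these values. *Ccl21b* was at 2.01 and 1.46 in wild-type, 1.06 and 1.08 in heterozygous, and 0.37 and 0.76 in null ovaries, and fell by 1.17 (SE 0.18, adjusted p = 0.0036). *Ccl21a* fell by 0.80 (SE 0.14, adjusted p = 0.0079), from 1.51 and 1.16 to 0.36 and 0.70, while its dimmer probe fell by 0.41 without passing (adjusted p = 0.82). The receptor *Ccr7*, given here beside its ligands, differed by -0.08 (SE 0.05, adjusted p = 0.54). Of the 27 chemokines the 4 described were lower and none was higher, with a median difference of -0.01 over all of them.

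**Figure D2:**
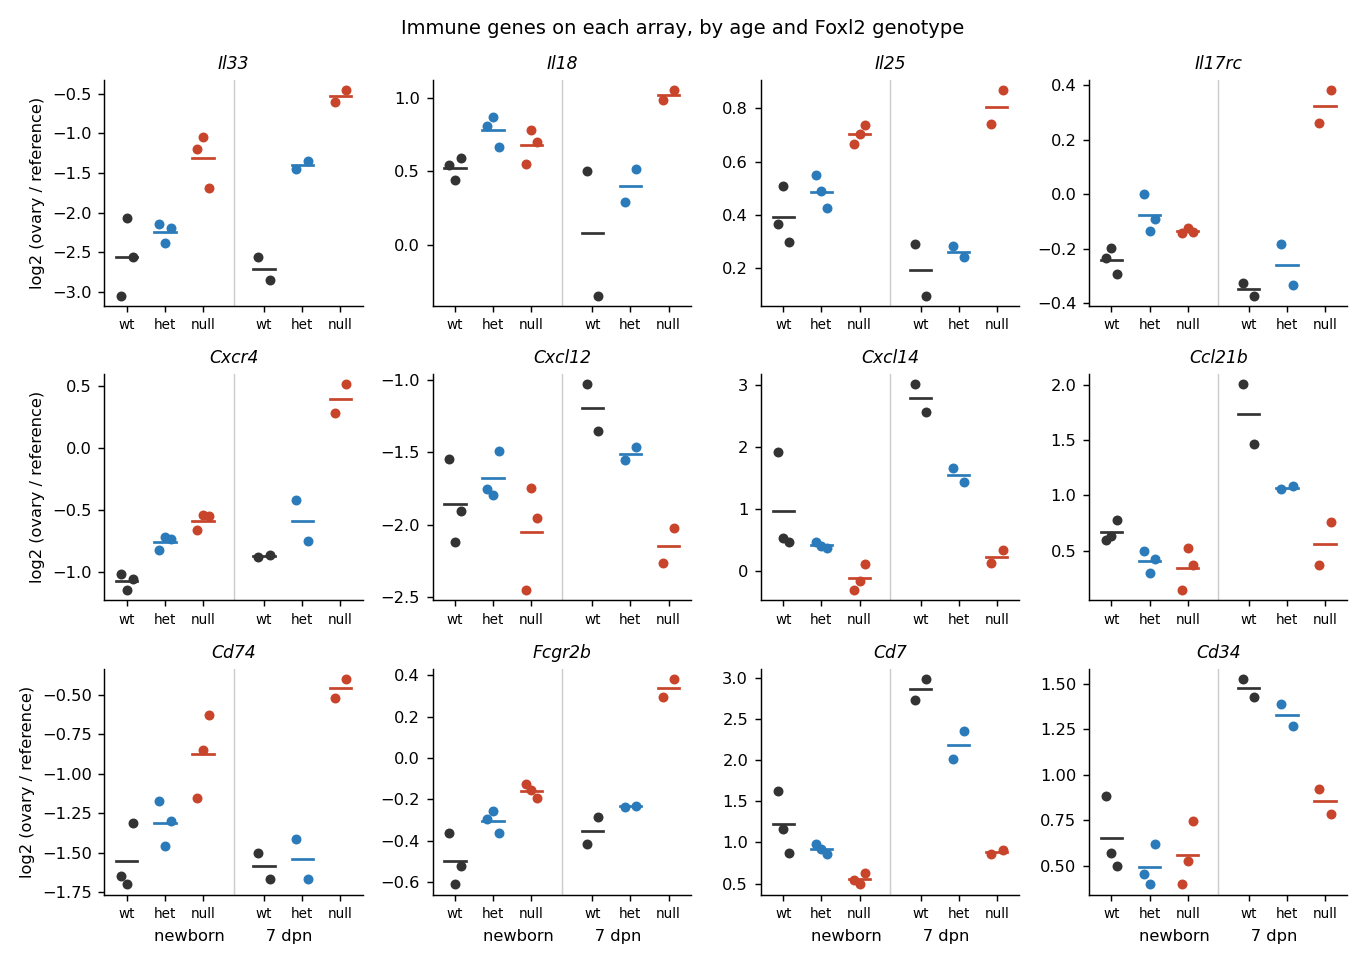
Log2 ratio of ovary over reference (y axis, its own range in each panel) on every array for 12 of the called genes, with newborn arrays to the left and 7 dpn arrays to the right of the grey line; black, blue and red points are wild-type, heterozygous and null ovaries and short lines are group means. Cxcr4 reaches 0.28 and 0.51 in 7 dpn null ovaries and Cxcl14 falls there to 0.13 and 0.34, and the first newborn wild-type point of Cxcl14, at 1.91, stands above the other 2.

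Of the 6 genes of MHC class II presentation, *Cd74* and *H2-Eb1* were called higher in null ovaries at 7 dpn and *Cd74* alone in newborns, with median differences of 0.132 and 0.105 over the 6. *Cd74*, the invariant chain that chaperones class II molecules, has 1 probe. It stood at -1.50 and -1.66 in wild-type, -1.41 and -1.66 in heterozygous, and -0.52 and -0.40 in null ovaries at 7 dpn, a rise of 1.12 (2.18-fold, SE 0.17, adjusted p = 0.0040). Newborn values were -1.65, -1.70 and -1.31 in wild-type, -1.17, -1.46 and -1.30 in heterozygous, and -1.15, -0.85 and -0.63 in null ovaries, a rise of 0.68 (SE 0.14, adjusted p = 0.042). The newborn call was lost under 17 of 28 alternative settings, with adjusted p up to 0.51. Heterozygous and wild-type values overlapped at 7 dpn.

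*H2-Eb1*, the beta chain of the class II molecule E, moved by 0.21 on its brightest probe at 7 dpn (SE 0.05, adjusted p = 0.039), from -0.16 and -0.13 in wild-type to 0.04 and 0.09 in null ovaries. Its dimmer probe, well above background on all 15 arrays, stood at 0.59 and 0.33 in wild-type, 0.94 and 0.94 in heterozygous, and 2.10 and 2.19 in null ovaries, a rise of 1.69 (3.22-fold, SE 0.17, adjusted p = 0.00034). In newborns the dimmer probe rose by 1.29 (SE 0.14, adjusted p = 0.0013), and the brightest by 0.14 without passing (adjusted p = 0.16). *H2-DMb1*, part of the molecule that loads peptides onto class II, also had probes that differed. Its brightest probe differed by 0.06 at 7 dpn (adjusted p = 0.94) and by -0.13 in newborns, whereas the dimmer one rose from 0.12 and 0.11 to 1.46 and 1.52, by 1.37 (SE 0.16, adjusted p = 0.00065), and in newborns by 0.78 (SE 0.13, adjusted p = 0.012). The dimmer probes were looked at after their values had been seen.

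**Figure D3:**
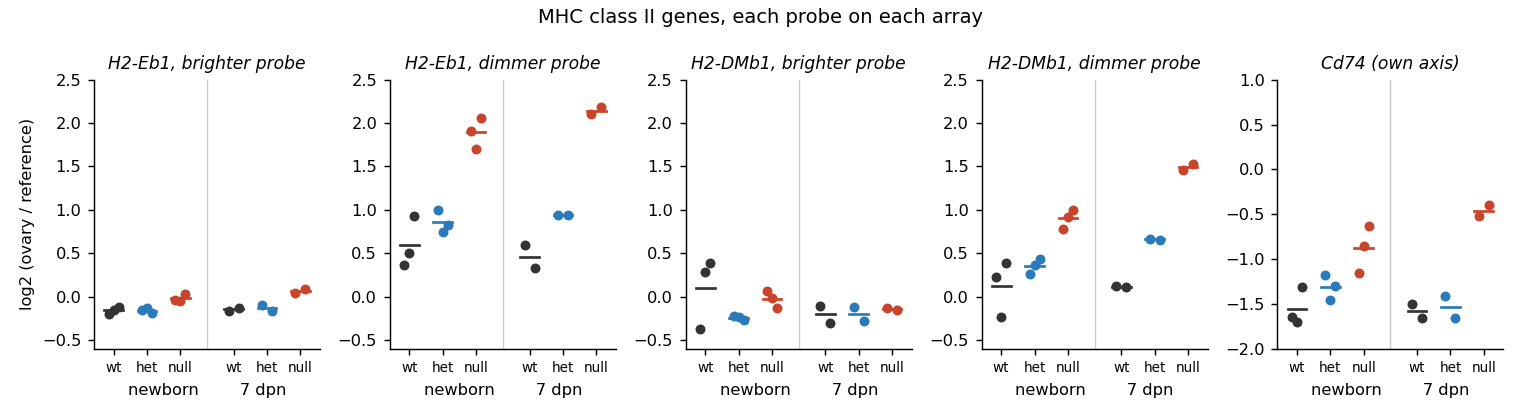
Log2 ratio of ovary over reference (y axis; the Cd74 panel has an axis of its own, equal in span) on every array for the brighter and dimmer probe of H2-Eb1 and H2-DMb1 and the one probe of Cd74; black, blue and red points are wild-type, heterozygous and null ovaries and short lines are group means. The brighter H2-Eb1 probe stays between -0.20 and 0.09 on all arrays, while the dimmer one reaches 2.10 and 2.19 in 7 dpn null ovaries.

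Probes of a gene differed in other cases too. In 29 genes a second probe was well above background on all arrays, and in 24 of them the brighter probe spanned the smaller range over the 15 arrays, with a median range of 0.391 against 0.543. A called gene such as *Cd7* could also have probes that moved alike: its brighter probe fell by 1.98 and its dimmer one by 1.67 at 7 dpn.

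The promoters of *H2-Eb1* and *H2-DMb1* are shown because their dimmer probes both rose and because class II genes are known to share an X box and a CCAAT box (Y box) bound by a common set of factors. The windows hold 250 bases before and 50 after the transcription start in RefSeq's annotation of GRCm38.p6, 5′ to 3′ on the strand of the gene, with capitals marking CTAGCAAC and CCAAT on either strand; *H2-Eb1* lies at chr17:34305617-34305916 (plus strand) and *H2-DMb1* at chr17:34152941-34153240 (plus strand).
H2-Eb1: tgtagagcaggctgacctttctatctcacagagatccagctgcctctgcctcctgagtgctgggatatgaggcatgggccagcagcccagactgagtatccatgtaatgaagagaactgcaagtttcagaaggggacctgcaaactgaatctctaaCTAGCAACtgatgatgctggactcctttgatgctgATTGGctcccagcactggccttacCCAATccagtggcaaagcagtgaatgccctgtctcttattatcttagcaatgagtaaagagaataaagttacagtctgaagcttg
H2-DMb1: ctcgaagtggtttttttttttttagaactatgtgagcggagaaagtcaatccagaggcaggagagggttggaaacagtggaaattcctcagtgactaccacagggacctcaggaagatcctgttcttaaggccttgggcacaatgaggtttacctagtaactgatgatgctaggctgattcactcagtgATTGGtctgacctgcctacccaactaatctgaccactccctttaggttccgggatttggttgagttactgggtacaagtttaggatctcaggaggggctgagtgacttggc
The first capitals of *H2-Eb1*, at bases 157 to 164, are CTAGCAAC, which 2 of the 5 class II genes with a window hold (*H2-Eb1* and *H2-Ob*) and 1.32% of all 32851 windows. Only exact matches were counted. The window of *H2-DMb1* holds a near match to this motif, 1 letter off, before its CCAAT in reverse. A window without an exact match is therefore not shown to lack an X box. CCAAT is in all 5 class II windows and in 37.4% of all windows. *Cd74* has no window in the table used.

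The window of *Il33*, the gene with the largest rise, was searched for GTAAACA, a core of forkhead sites, since *Foxl2* is a forkhead factor. The first of its 2 windows, at chr19:29924863-29925162 of GRCm38.p6 (plus strand), holds it at bases 89 to 95, in reverse as TGTTTAC, and the other capitals are CCAAT in reverse.
Il33: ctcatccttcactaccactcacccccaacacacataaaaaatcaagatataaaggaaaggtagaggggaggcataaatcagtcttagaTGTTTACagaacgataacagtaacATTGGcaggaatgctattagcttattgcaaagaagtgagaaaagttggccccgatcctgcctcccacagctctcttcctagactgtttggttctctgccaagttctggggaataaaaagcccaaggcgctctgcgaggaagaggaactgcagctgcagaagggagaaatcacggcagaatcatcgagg
The motif GTAAACA is in 3.65% of all windows and in the windows of 7 of 166 genes with one (4.22%), and of the genes called at 7 dpn only *Il33* holds it, among 7 higher and 6 lower genes with a window. TTCNNNGAA, a STAT site, is in 8.3% of all windows and, of the genes called, in that of *Cxcl14*. A match is a run of letters and not evidence of binding.

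Among receptors of the innate arm and C1q 1 gene was called at 7 dpn. *Fcgr2b*, the inhibitory IgG receptor, was the single Fc receptor called among 7, at -0.42 and -0.29 in wild-type, -0.24 and -0.23 in heterozygous, and 0.30 and 0.38 in null ovaries at 7 dpn, a rise of 0.69 (SE 0.08, adjusted p = 0.00065). In newborns it rose by 0.34 (SE 0.06, adjusted p = 0.024), with all 3 null arrays above the wild-type arrays. *Fcgr1*, a high-affinity IgG receptor of macrophages, differed by 0.39 at 7 dpn (SE 0.11, adjusted p = 0.080) and *Fcgr3* by 0.15 (SE 0.10). Of 8 Toll-like receptors none was called (limma; 1 at an unadjusted p under 0.05), with *Tlr2* at 0.76 (SE 0.24, adjusted p = 0.099) and *Tlr4* at 0.17 (SE 0.35). *C1qa* (0.59, SE 0.23, adjusted p = 0.19), *C1qb* and *C1qc*, the 3 chains of the starter of the classical complement cascade, did not pass either (1 of 3 at an unadjusted p under 0.05).

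Surface antigens are a mixed group in which *Cd7* and *Cd34* were called. *Cd7*, known from T and NK cells, was high in 7 dpn wild-type ovaries, at 2.73 and 2.99, lower in heterozygous ovaries, at 2.02 and 2.35, and at 0.85 and 0.91 in null ovaries, a fall of 1.98 (3.94-fold, SE 0.19, adjusted p = 0.00025). Newborn null ovaries, at 0.54, 0.49 and 0.63, lay below all wild-type arrays, by 0.67 without passing (adjusted p = 0.069). No other T or NK cell antigen of the 11 was called. *Cd34*, a sialomucin of vascular endothelium and blood progenitors, fell by 0.63 (SE 0.14, adjusted p = 0.025), from 1.53 and 1.43 to 0.92 and 0.78. *Ptprc*, the antigen CD45 of all leukocytes, was well above background on 7 of 15 arrays and lay between -5.46 and -2.54. *Cd14*, *Cd9*, *Cd36*, *Cd55* and *Cd81* were not called in this comparison; *Cd81* was measured on 11 arrays.

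The calls on *Il33*, *Cxcr4*, *Il17rc*, *Cxcl14* and *Cd7* held under all 28 alternative settings tried, whereas that on *Il13ra2* was lost under 15 of them, that on *Cxcl12* under 13, that on *H2-Eb1* under 11, that on *Cd34* under 8 and those on *Il18* and *Ccl21a* under 5 each. The count of 17 ranged from 12 to 21 when arrays were left out in turn. Leaving out one 7 dpn array at a time, 9 higher and 3 lower genes were called without null replicate 1, 8 and 4 if null replicate 2 was dropped, 10 and 3 if it was wild-type replicate 1, and 12 and 4 if it was heterozygous replicate 2.

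Cell type markers moved with the same contrast, and some of them are themselves among the 216 genes. These are 6 of the macrophage, 5 of the T cell and 4 of the B cell markers measured, and 1 each of the neutrophil, mast cell and endothelial markers. The endothelial one is *Cd34*, whose fall is thus counted in both places. Of 13 measured macrophage markers 11 differed by more than 0 at 7 dpn and 1, *Ctss*, was called (0.58, SE 0.12, adjusted p = 0.018); their mean log2 ratio was -0.33 to -0.30 in wild-type, -0.16 to -0.10 in heterozygous and -0.16 to -0.10 in null ovaries. None of 8 T cell, 7 B cell, 7 neutrophil and 6 mast cell markers was called (limma; 0, 1, 1 and 0 at an unadjusted p under 0.05), nor was either of the 2 erythroid markers measured, of 8 listed (1 at an unadjusted p under 0.05). Endothelial markers had a median difference of -0.52 and 3 of 8 fell, *Cd34*, *Emcn* and *Flt1*. Granulosa markers fell in 6 of 8 cases with a median of -1.91, steroidogenic markers in 3 of 6 and oocyte markers in 2 of 9. All of these markers were well above background on at least 1 array. Whether cell content has a part in the changes of the immune genes was not tested.

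Genes of the pathways around the 216 gave a few calls of their own at 7 dpn. *Ackr4*, a scavenging receptor for *Ccl19* and Ccl21, rose by 1.33 (SE 0.26, adjusted p = 0.013), the only one called of 10 further chemokine genes. *Tyk2* rose by 0.33, while *Jak1* (-0.40) and *Socs2* (-2.25) fell, out of 13 JAK and STAT genes. The interferon-induced genes *Ifit2* (0.35), *Irf9* (0.35) and *Isg15* (1.06) rose, out of 14. Of these 14, 10 had an unadjusted p under 0.05 (limma), as did 17.4% of all probes, and the median difference was 0.242. None of 12 Toll-like and NF-kappaB genes was called in either direction (limma; 3 at an unadjusted p under 0.05), and 11 of them differed by more than 0, with a median of 0.14.

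In newborn ovaries fewer genes were called, all of them higher in null than in wild-type ovaries. The 6 genes (2.78% of the 216, where 1.67% of all probes were called and 1.05% were called higher) were *Il33*, *Cxcr4*, *Fcgr2b*, *Cd74*, *Cd24a* and *Il4i1*. The first 4 were also called higher at 7 dpn, and are 66.7% of the newborn calls and 23.5% of the 7 dpn calls. The same overlap over all probes is not given here, so whether these shares are large for the array cannot be said. Of 28 alternative settings the newborn call was lost under 8 for *Fcgr2b* and for *Cd24a*, 6 for *Cxcr4* and 5 for *Il33*. *Cd24a*, a mucin-like antigen of many immature and epithelial cells, stood at -0.31, -0.22 and 0.31 in wild-type, 0.34, 0.36 and 0.52 in heterozygous, and 0.78, 0.77 and 0.98 in null ovaries, a rise of 0.92 (SE 0.19, adjusted p = 0.036). At 7 dpn it differed by 0.33 (SE 0.23, adjusted p = 0.57). *Il4i1*, a secreted amino acid oxidase first found as an interleukin-4-induced gene, rose by 0.24 (SE 0.05, adjusted p = 0.037), from 0.02, 0.16 and 0.00 to 0.31, 0.31 and 0.27, a call lost under 17 of 28 alternative settings.

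Newborn null ovaries also had calls among interferon-induced genes, 5 of 14 measured, all higher, where 1.05% of all probes were called higher. This list had the most calls and also the most measured genes of the lists used. An unadjusted p under 0.05 (limma) was found for 8 of the 14. *Isg15* rose by 1.78 (SE 0.21, adjusted p = 0.0021) and *Ifit1* by 1.36 (SE 0.19, adjusted p = 0.0050). *Bst2* (0.98), *Ifit2* (0.30) and *Irf9* (0.27) made up the rest, and the list's median was 0.29 beside 0.01 over all probes. *Socs2* fell by 0.96 in newborns as well. No macrophage, T cell, B cell, neutrophil or mast cell marker was called in newborns (limma; 3, 0, 1, 0 and 0 at an unadjusted p under 0.05). The mean macrophage ratio ran from -0.415 to -0.366 in wild-type, from -0.257 to -0.148 in heterozygous and from -0.353 to -0.267 in null ovaries. Granulosa markers differed by less than 0 in all 8 cases (median -0.611, *Fst* called), with mean ratios of 0.022 to 0.07 in null and 0.426 to 1.068 in wild-type ovaries. Of the steroidogenic markers *Hsd3b1* fell by 2.46, and oocyte markers had a median difference of -0.353, with mean ratios of 3.08 to 3.23 in null and 3.41 to 3.50 in wild-type ovaries. The part of these markers in the newborn calls was not tested.

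With normexp background correction 7 genes were higher in newborn null ovaries and 2 lower. The count of 6 depended on single arrays. It was 13 without wild-type replicate 1, the array that stood apart, and then included 6 genes lower in null ovaries, among them *Cd7* (-0.48, adjusted p = 0.035) and *H2-DMb1* on its brightest probe (-0.39, adjusted p = 0.015), which are named here after their values were seen. It was 2 without wild-type replicate 2, 3 without heterozygous replicate 1 or 3 or null replicate 1, 2 without null replicate 3 and 0 without null replicate 2.

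**Figure D4:**
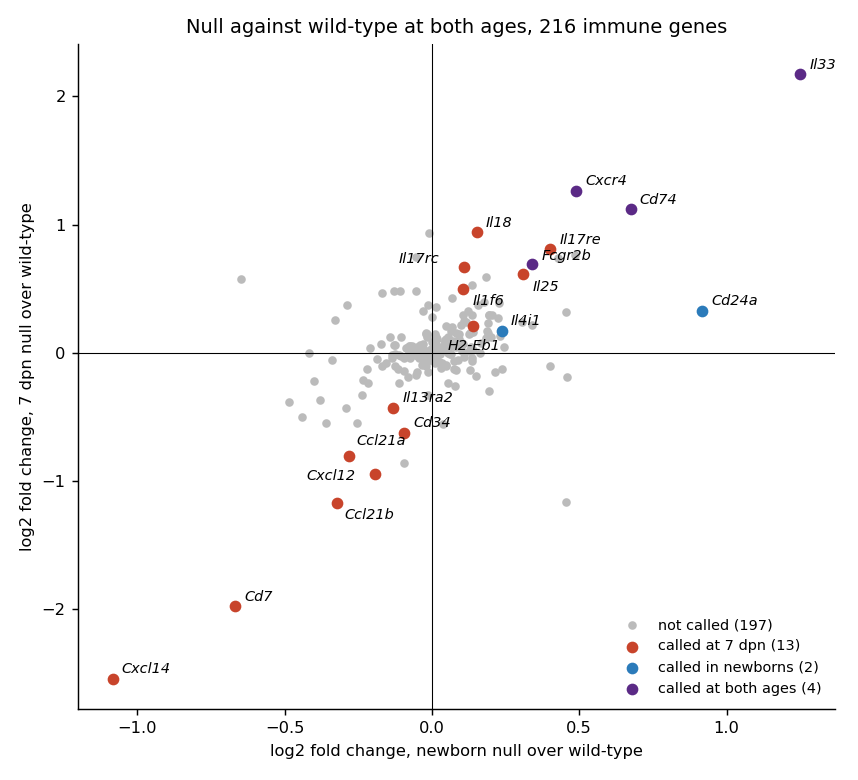
Log2 fold change of null over wild-type ovaries in newborns (x axis) and at 7 dpn (y axis) for the 216 genes, one point each; purple points were called at both ages, red ones at 7 dpn, blue ones in newborns and grey ones at neither. Il33 lies at 1.25 and 2.17, Cxcl14 at -1.08 and -2.55, and the 197 uncalled genes lie mostly near the origin.

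The change with *Foxl2* loss was compared directly between the ages. One gene passed, *Il17rc*, whose null effect was larger at 7 dpn by 0.57 (SE 0.09, adjusted p = 0.040; 0.463% of the 216, where 0.188% of all probes were called and 0.0927% were called higher). For *Cxcr4* the difference of effects was 0.77 (SE 0.14, adjusted p = 0.058) and for *Cd7* -1.31 (SE 0.25, adjusted p = 0.074), so neither is shown to differ between the ages. *Il1f6* (0.39) and *Cd320* (-0.37) followed with adjusted p = 0.18 and 0.19. The call on *Il17rc* was lost under 17 of 27 alternatives, and 6 genes passed without newborn wild-type replicate 1, *Cd7* (-1.53), *Cxcl14* (-1.92), *Cd302* (-1.20), *Il17rc* (0.55), *Cxcr4* (0.73) and *Cd34* (-0.67).

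Heterozygous ovaries gave no call against wild-type among the 216 genes at either age. At 7 dpn 0.0464% of all probes were called. An unadjusted p under 0.05 (limma) was found for 20 of the 216 genes, 9.26% where 8.64% of all probes had one. The smallest p belonged to *Il33*, with a difference of 1.31 (95% interval 0.71 to 1.90, adjusted p = 0.15), followed by *Il12rb2* (-0.35), *Ccl21b* (-0.67), *Ccl11* and *Cd7* (-0.67). *Ccl11* was well above background on 1 of 15 arrays and is given no fold. Without newborn wild-type replicate 1, which enters through the pooled spread, *Il33* (1.29, adjusted p = 0.045) and *Cxcl14* (-1.22, adjusted p = 0.020) passed, and without 7 dpn wild-type replicate 1 there was 1 call.

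In newborns 0.0293% of all probes and none of the 216 genes were called in heterozygous ovaries. An unadjusted p under 0.05 (limma) was found for 30 genes, 13.9% where 13.4% of all probes had one. *Il4i1* came nearest, at 0.36, 0.41 and 0.40 in heterozygous ovaries, above all wild-type arrays, a difference of 0.33 (95% interval 0.22 to 0.44, adjusted p = 0.063). *Fcgr1* (0.43), *Il1a* (-0.28), *Tlr6* (0.77) and *Cxcr4* (0.32) were next, with adjusted p from 0.13 to 0.16. Without newborn wild-type replicate 1 there were 8 calls, 3 higher and 5 lower. The higher ones were *Il4i1* (0.34), *Fcgr1* (0.355) and *Cxcr4* (0.39), and the lower ones *H2-DMb1* (-0.605, adjusted p = 0.0022), *Ccl19* (-0.54, adjusted p = 0.0030), *Cxcr2* (-0.365), *Il1a* (-0.34) and *H2-DMa* (-0.22). Macrophage markers, whose mean ratio was highest in heterozygous ovaries among the newborn groups, had no call and 6 of 13 at an unadjusted p under 0.05 (limma), and their part in these values was not tested. For the difference of the heterozygous effect between the ages none of the 216 genes passed, where 0.00244% of all probes were called. Here 15 genes had an unadjusted p under 0.05 (limma), 6.94% where 7.45% of all probes had one. The smallest p belonged to *Ccl11*, *Tlr6* (-1.17), *Cd320* (-0.35), *Il4i1* (-0.25) and *Ccr7* (-0.20). Without newborn wild-type replicate 1 a pair passed, *H2-DMb1* (0.615, adjusted p = 0.036) and *Cxcl14* (-1.18, adjusted p = 0.037).

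Null and heterozygous ovaries were also compared. At 7 dpn 10 genes were called, 4.63% of the 216, where 2.19% of all probes were called. The 7 higher ones (3.24%, with 1.04% of all probes called higher) were *Cd74* by 1.08 (SE 0.17, adjusted p = 0.0090), *Cxcr4* by 0.98 (SE 0.10, adjusted p = 0.00095), *Il17re* (0.66), *Il17rc* (0.58), *Fcgr2b* (0.57), *Il25* (0.54) and *Il1f6* (0.38). The 3 lower ones (1.39%, with 1.15% of all probes called lower) were *Cd7* by 1.31 (SE 0.19, adjusted p = 0.0055), the class I-like gene *H2-M10.2* by 0.50 (SE 0.11, adjusted p = 0.038) and *Ccl11*, which was near background. With normexp background correction 9 were higher and 2 lower. The call on *Il17re* was lost under 17 of 28 alternative settings, that on *H2-M10.2* under 16 (with its sign turned under 1 more) and that on *Il1f6* under 12. This comparison shares its null arrays with the one against wild-type. Mean granulosa ratios were 0.09 to 0.191 in null and 0.727 to 0.797 in heterozygous ovaries, and steroidogenic ones -0.031 to 0.202 and 0.982 to 1.205. Oocyte ratios were 3.232 to 3.288 and 3.634 to 3.755. *Amh*, *Hsd3b1*, *Bmp15* and *Oosp1* were called lower, while 2 of 8 granulosa, 2 of 6 steroidogenic and 3 of 9 oocyte markers differed by more than 0. The part of these markers was not tested. The count was 6 without heterozygous replicate 1, 4 without heterozygous replicate 2, 6 without null replicate 1 and 3 without null replicate 2. Without newborn wild-type replicate 1 the split was 6 higher and 6 lower, with *Cxcl14* (-1.26), *Cd34* (-0.50) and *Il15ra* (-0.71) among the lower genes, and it was 3 and 0 without null replicate 2 and 4 and 0 without heterozygous replicate 2. The second probe of *H2-M10.2* differed by 0.10 in the opposite direction.

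Newborn null and heterozygous ovaries gave no call among the 216 genes, where 0.398% of all probes were called. An unadjusted p under 0.05 (limma) was found for 21 genes, 9.72% where 8.72% of all probes had one. *H2-M10.2* (-0.38, adjusted p = 0.12), *Il33* (0.93, adjusted p = 0.14), *H2-Eb1* (0.14), *Il5ra* (-0.23) and *Il25* (0.21) had the smallest p. The dimmer *H2-Eb1* probe differed by 1.03 (SE 0.14, adjusted p = 0.014). Without newborn wild-type replicate 3 there was 1 call.

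In wild-type ovaries alone, 26 of the 216 genes differed between birth and 7 dpn (12%, where 8.61% of all probes were called). At 7 dpn 20 were higher (9.26%, with 4.8% of all probes called higher) and 6 were lower (2.78%, with 3.81% called lower). This comparison and that of null with wild-type ovaries at 7 dpn rest on the same 2 wild-type arrays at 7 dpn. On the deposited series values, which shift the median of all probes by -0.16, the split was 10 higher and 22 lower.

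Among chemokines *Cxcl14* rose by 1.81 with age (SE 0.35, adjusted p = 0.011), *Ccl21b* by 1.07 (SE 0.16, adjusted p = 0.0047) and *Ccl21a* by 0.71 (SE 0.13, adjusted p = 0.0092), while *Ccl6*, a chemokine of the myeloid lineage, fell by 0.68 from 0.92, 1.06 and 1.43 to 0.41 and 0.49. *Cd7* rose by 1.64 (SE 0.18, adjusted p = 0.0011), from 1.63, 1.17 and 0.88 to 2.73 and 2.99. *Cd34* rose by 0.83 (SE 0.13, adjusted p = 0.0047), from 0.88, 0.57 and 0.50 to 1.53 and 1.43. *Cd302*, a C-type lectin receptor of myeloid cells, rose by 1.53 (SE 0.31, adjusted p = 0.013), with newborn values of 0.66, -0.53 and -0.61 and 7 dpn values of 1.63 and 1.11. The first newborn array was closest to the 7 dpn arrays in *Cxcl14*, *Cd7*, *Cd34* and *Cd302*.

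*Il16*, a chemoattractant for CD4 cells, rose by 0.91 (SE 0.20, adjusted p = 0.021), and *Tlr6*, which pairs with *Tlr2*, by 0.82 (SE 0.22, adjusted p = 0.040). *Fcgrt*, the neonatal Fc receptor that carries IgG across epithelia, rose by 0.65 (SE 0.16, adjusted p = 0.028), from -0.18, -0.34 and -0.24 to 0.24 and 0.57. *Il17rb*, a receptor subunit for *Il25*, rose by 0.56 (SE 0.12, adjusted p = 0.015). The 10 genes higher that are not named had differences of 0.29 to 0.50. Beside *Ccl6*, the genes lower at 7 dpn were *Il22ra2*, a soluble decoy for interleukin-22 (-0.60), *Cd55b*, a complement regulator (-0.48), the receptor *Cxcr2* of neutrophils (-0.42), *Il1a* (-0.33) and *Il4i1* (-0.20). Of 27 alternative settings the call was lost under 19 for *Il4i1*, 17 for *Cxcr2*, 10 for *Tlr6*, 9 for *Fcgrt* and 7 for *Il1a*. *Cxcr4*, *Cd74*, *Il33* and the 3 C1q genes were not called with age.

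**Figure D5:**
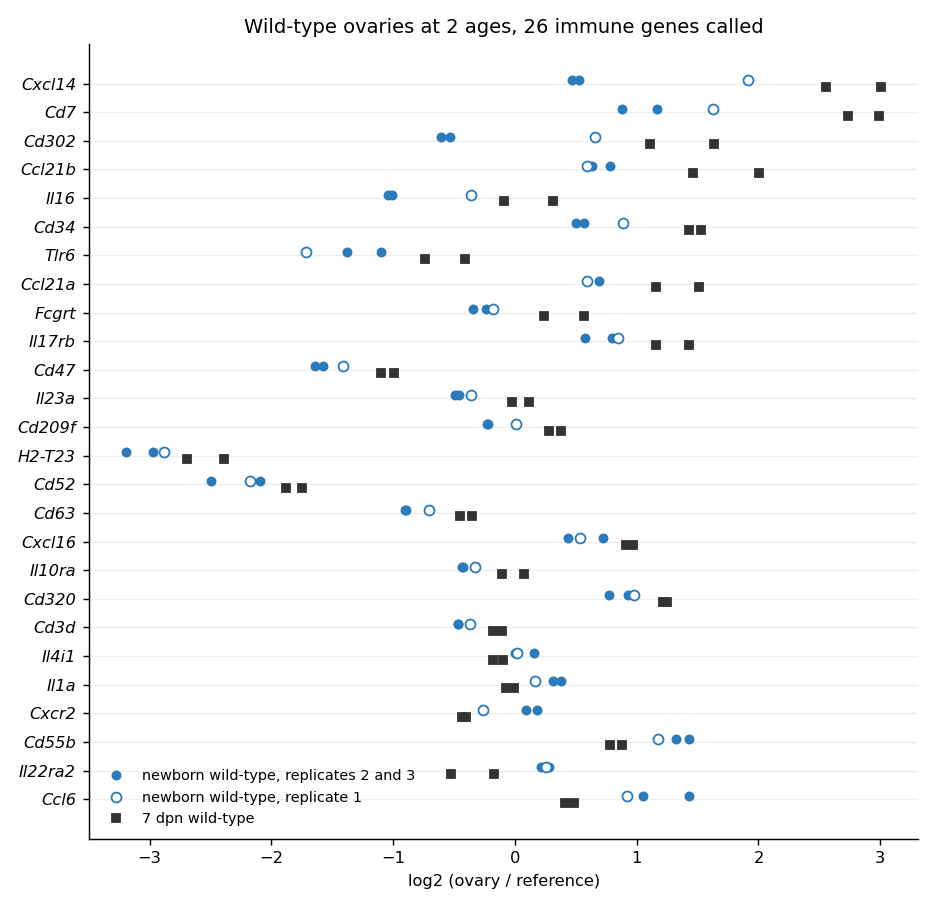
Log2 ratio of ovary over reference (x axis) on each wild-type array for the 26 genes that differed between ages (rows, ordered by the difference); blue circles are newborn arrays, the open one being replicate 1, and black squares are the 2 arrays at 7 dpn. Newborn and 7 dpn points do not overlap in any row, and the open circle lies nearest to the squares for Cxcl14, Cd7 and Cd302.

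Lists of immune cell markers had no common direction with age. *Cd3d* and *Cxcr2*, given here as markers, are also counted among the 26 genes called. Of 13 macrophage markers 7 differed by more than 0 (median 0.031) and *Lyz2* rose (0.63); of 8 T cell markers 2 did (median -0.108), with *Cd3d* (0.29) called higher. Of 7 B cell markers 2 differed by more than 0 (median -0.061) and *Blk* fell (-0.335), and of 7 neutrophil markers 4 did (median 0.02) and *Cxcr2* fell. None of 6 mast cell markers was called (limma; 4 at an unadjusted p under 0.05), with a median of -0.243. Granulosa markers rose as well (4 of 8 called, median 0.95), as did 3 of 4 smooth muscle and stromal markers, 2 of 8 endothelial markers and the immunoproteasome genes *Psmb8* and *Psmb9*. Of the steroidogenic markers 2 of 6 were called higher (median 0.689). Of 9 oocyte markers 2 were called higher and 1, *Kit*, lower (median 0.433). Newborn wild-type replicate 1 had a mean granulosa ratio of 1.07 against 0.43 and 0.60 on the other newborn wild-type arrays, and a steroidogenic ratio of 1.02 against 0.47 and 0.66; what part this has in the values above was not tested. Of 26 calls 23 were also made without that array, when 39 genes passed. The count fell to 10 without 7 dpn wild-type replicate 1, 16 without 7 dpn wild-type replicate 2, 12 without newborn wild-type replicate 2 and 15 without newborn wild-type replicate 3.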

How the data were processed

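Ovary RNA of 15 mice or pools was hybridised to Agilent mouse developmental arrays with 2 colours. The deposited scanner output holds intensity per spot, from which Agilent Feature Extraction A.7.5.1 had removed background and which it had balanced between dyes; the authors also deposited series values of unstated scale, taken here as linear intensity and put on log2 as an alternative. Log2 ratios of ovary over reference were computed from the processed intensities without control and outlier spots, and each array was normalised by loess (span 0.01) against a virtual array of probe means, after the study's methods, with a local linear fit. Group means were fitted with limma 3.58.1 in R 4.3.3, all arrays sharing 1 estimate of the spread, and a call is an adjusted p (Benjamini-Hochberg, 40990 probes) below 0.05. Precision is limited by the few arrays. The procedure was tested on simulated data.

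Symbols came from RefSeq accessions (GRCm38.p6 table), which named 15294 of 41006 probes. The genes, lists and tests were chosen with earlier results of these data known. Named in the text were, per comparison, up to 10 called genes in each direction that were well above background on every array of a group, the 5 smallest p where fewer than 5 were called, called genes of the lists (not all are printed, and 1 list is not reported here), and genes fixed by role, of which Ccl2, Il6st, H2-K1, H2-D1, H2-Ab1, H2-Aa, Fcer1g, Cd68 and Cd44 had no named probe. The methods give 4 samples at 7 dpn where 6 carry the labels, and all 6 were used; the labels name an amplification kit for every sample, the methods none at 7 dpn. That newborn samples were separate mice comes from the methods.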

Additional observations from a re-analysis of the deposited data

Results flagged for a closer look

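The effect of *Foxl2* loss on *Il17rc* passed the test of a difference between the ages: the rise of null over wild-type ovaries was larger at 7 dpn than in newborns by 0.57 on the log2 scale (SE 0.09, limma, adjusted p = 0.040). The call was lost under 17 of 27 alternative settings, among them the replicate block and the ovary channel alone, with adjusted p up to 0.52. The value came from 2 null and 2 wild-type arrays at 7 dpn and 3 of each in newborns, and both 7 dpn null arrays, at 0.26 and 0.38, lay above the other 13 arrays.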

How the results depend on the processing

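Of 49 calls on named genes among the 216, 48 kept their sign under every alternative run and 8 also stayed past the threshold under all of them. Calls on genes of the lists outside the 216 are not part of this count. The exception in sign was *H2-M10.2* in null against heterozygous ovaries at 7 dpn, at 0.10 on its second probe. Differences not called that turned sign were those of *Ccl11*, whose sign cannot be read because its probe was well above background on 1 of 15 arrays, in heterozygous ovaries at 7 dpn (-0.016 with normexp background correction, -0.85 on the authors' series values) and between the ages (-1.18 on the series values), *Il1a* in newborn heterozygous ovaries (0.034 on the ovary channel alone), *H2-M10.2* in newborn null against heterozygous ovaries (0.035 on its second probe) and the heterozygous effect on *Ccr7* between the ages (0.047 on the ovary channel alone). The ovary channel alone gave fewer calls: 8 and 2 for null against wild-type and heterozygous ovaries at 7 dpn, 1 for newborn null ovaries, 7 for age and 0 for the difference of null effects. A threshold of 0.01 left 6 calls for null against heterozygous ovaries at 7 dpn, 0 for newborn null ovaries, 8 for age and 0 for the difference of effects. Fits to 1 age gave 2 calls for null against heterozygous ovaries at 7 dpn and 3 for newborn null ovaries, and the series values gave 2 for the latter. Normexp background correction gave 2 calls in newborn heterozygous ovaries and 3 for the difference of null effects, a filter on dim probes 2 for this difference, averaging the probes of a gene 1 for newborn null against heterozygous ovaries and 2 for the difference, adjusting over named probes alone 1 in newborn heterozygous ovaries and 2 for the difference, and the second probe of a gene 1 for newborn null against heterozygous ovaries. This last alternative and the crossed pairing were chosen after seeing the data. Their cause was not tested.

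Leaving out each array in turn gave 12 to 21 calls for null against wild-type at 7 dpn, 3 to 12 for null against heterozygous, 0 to 2 for heterozygous against wild-type, 0 to 13 for newborn null and 0 to 8 for newborn heterozygous against wild-type, 0 to 1 for newborn null against heterozygous, 10 to 39 for age, 0 to 6 for the difference of null effects and 0 to 2 for that of heterozygous effects. Where an age was left with 1 array of a genotype, it was assumed to vary like the other groups. Replicate numbers did not pair the arrays (correlations of same-number deviations from -0.171 to 0.143); with the replicate number as a block there were 15 calls for null against wild-type at 7 dpn, 8 against heterozygous, 4 in newborns, 19 for age and 0 for the difference of null effects. Crossing the numbers of the 7 dpn heterozygous arrays, which deviated from wild-type arrays with r = -0.137, gave 17, 10, 5, 23 and 0. The scan date as a block was not run because the files used give the day of feature extraction alone, which coincides with age. Weak signal limits the genes not well above background, and for all genes the 2 arrays per group at 7 dpn do.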
